A study of Homo sapiens with 6 samples.

Results

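The genes described here are 36 neighbours on the long arm of chromosome 14, from SEC23A to CNIH in chromosome order. They were listed because they had been seen higher in the high-potential libraries and in the second parental accelerated library. They were thus selected on their FPKM values in these same libraries. These values are given as a description, and no test on them is read as support for the list. Of 23284 gene symbols with a value, 36 are listed, and 35 of these are among the 12135 genes that reached 1 FPKM (fragments per kilobase of transcript, relative to the mapped fragments of the library) in at least 2 libraries. The remaining one, GNG2, a G protein gamma subunit, had 0.0250 FPKM in high-potential accelerated replicate 1 and is listed at 0 in the other 5 libraries.

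The libraries are bulk RNA-seq of HEC-1B, a human endometrioid carcinoma cell line, in 3 groups of 2. Cells were sorted for aldehyde dehydrogenase (ALDH), an activity used to mark stem-like tumour cells. The first group, high-potential accelerated, is labelled as a high ALDH potential form of the line, the second, parental accelerated, has no such label, and both are labelled ALDH-high and accelerated. The third group, high-to-low, is labelled as passing from the ALDH-high to the low state, although their descriptions name ALDH-high as well. No other agent or genotype is named, all groups rest on 1 cell line, and nothing says whether replicates came from separate cultures, so their spread may be technical. ALDH1A1 encodes an ALDH enzyme. It had 352.5 and 303.6 FPKM in high-potential accelerated, 26.7 and 316.9 FPKM in parental accelerated and 28.4 and 9.44 FPKM in high-to-low libraries. The library labelled parental accelerated replicate 1 was thus at a high-to-low level of ALDH1A1 RNA. ALDH activity, the sorted property, is not among these values. Values of a pair are given as replicate 1 and replicate 2 throughout. Relative depth, read from the steps of low values, lay between 0.807 and 1.07 of high-potential accelerated replicate 1, and 14786 to 15386 genes a library had a value above 0. Of the markers of epithelium and endometrium, KRT18 reached 464 FPKM and PAX8 189 FPKM. Other epithelial markers were uneven. KRT8 lay between 47.1 and 107.7 FPKM and EPCAM between 2.16 and 10.6 FPKM, while CDH1 and CLDN3 reached at most 0.0868 and 0.825 FPKM. Of 8 endometrial markers 3 were at 0 throughout, and SOX17 and FOXJ1 did not reach 1 FPKM in 2 libraries. No leukocyte, fibroblast or endothelial marker passed 1.79 FPKM in any library.

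Genes that lie side by side share the number of copies of their chromosome segment, its replication timing and much of its chromatin state. A change in any of these can move many unrelated genes in the same direction by a like amount, and aneuploid carcinoma lines often differ between sublines in copies of whole arms or segments. The listed genes show the mixture of functions that such a neighbourhood holds: secretory transport, splicing, ubiquitin ligases, DNA repair, Hippo and Ras signalling, glycogen breakdown and cell adhesion. No DNA measurement belongs to these libraries, so copy number, chromatin and regulation cannot be told apart here.

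Promoter sequence was available from RefSeq (GRCh38.p14, a later build than the hg19 of the deposited values) for 31 of the 36 genes, in 38 windows. The 250 bases before the annotated start are printed for 4 of them, because they cover high and low shifts and include a pair of genes that start back to back. MAP4K5, which encodes a kinase of the stress-signalling cascade, lies on the minus strand. ATL1, which encodes the membrane-shaping GTPase atlastin-1, has 2 windows on the plus strand. The start of the printed window of ATL1, the nearer, lies 513 bases from that of MAP4K5. SAV1, on the minus strand, has the highest and TMX1, on the plus strand, one of the lower differences between high-potential accelerated and high-to-low libraries. Capitals mark the GC box, GGGCGG or CCGCCC on the printed strand; SAV1 and ATL1 have none in this stretch.
MAP4K5 (chr14:50532570-50532819, minus strand): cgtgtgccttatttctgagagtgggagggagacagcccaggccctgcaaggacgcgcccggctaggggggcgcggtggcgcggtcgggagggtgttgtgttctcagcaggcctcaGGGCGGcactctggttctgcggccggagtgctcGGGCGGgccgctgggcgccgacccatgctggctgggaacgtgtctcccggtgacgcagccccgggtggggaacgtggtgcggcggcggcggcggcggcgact
ATL1 (chr14:50532832-50533081, plus strand): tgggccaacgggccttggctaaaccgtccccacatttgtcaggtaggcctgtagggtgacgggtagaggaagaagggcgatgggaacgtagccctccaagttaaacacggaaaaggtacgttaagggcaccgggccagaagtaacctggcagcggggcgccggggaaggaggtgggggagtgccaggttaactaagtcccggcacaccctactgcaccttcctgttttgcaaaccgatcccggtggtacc
SAV1 (chr14:50668307-50668556, minus strand): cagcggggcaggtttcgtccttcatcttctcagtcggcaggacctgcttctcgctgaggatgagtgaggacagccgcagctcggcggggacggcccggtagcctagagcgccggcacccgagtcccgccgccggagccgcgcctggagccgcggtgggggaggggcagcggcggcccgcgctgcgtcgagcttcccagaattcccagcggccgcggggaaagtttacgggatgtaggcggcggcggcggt
TMX1 (chr14:51239997-51240246, plus strand): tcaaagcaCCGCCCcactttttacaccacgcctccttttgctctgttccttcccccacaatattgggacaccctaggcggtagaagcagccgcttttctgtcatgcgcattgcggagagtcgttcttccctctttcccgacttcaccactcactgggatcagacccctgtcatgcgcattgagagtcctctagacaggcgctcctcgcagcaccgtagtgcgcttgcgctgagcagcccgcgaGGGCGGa

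In the 250 bases before the start, the GC box was found on either strand in 55.3% of the 38 windows. Over the same stretch it was in 42.6% of all 35116 RefSeq windows. The CCAAT box (CCAAT or ATTGG) was in 31.6% against 32.0%, and the ETS core (CCGGAA or TTCCGG) in 23.7% against 14.5%. The TATA box (TATAAA or TTTATA) and the E-box (CACGTG) were in 0 of the 38 windows, against 10.7% and 6.35% of all windows, and the CRE (TGACGTCA) was in 1. The listed windows had a median GC content of 61.6% and a median of 20.5 CG dinucleotides, against 58% and 11 over all windows. These letter matches describe the windows only.

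The shift of a gene in a library is taken here as its log2(FPKM + 1) minus the mean of the high-to-low libraries. Over the 35 kept genes the median shift was 0.41 in high-potential accelerated replicate 1 (SD over genes 0.33) and 0.54 in replicate 2 (SD 0.36). It was 0.34 in parental accelerated replicate 2 (SD 0.27) and -0.03 in parental accelerated replicate 1 (SD 0.32). By their median, the listed genes therefore stood higher in 3 of the 4 accelerated libraries and level with the high-to-low libraries in the remaining one. Over all 12135 kept genes the median shift lay between -0.01 and 0 in each of these libraries. As a ratio of FPKM to the high-to-low mean, the median gene had 1.33 and 1.53 in the high-potential accelerated libraries, 0.974 in parental accelerated replicate 1 and 1.28 in its replicate 2.

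Every kept member averaged higher in the high-potential accelerated than in the high-to-low libraries (35 of 35, beside 49.2% of all kept genes), with differences of 0.08 to 1.10 on the log2(FPKM + 1) scale, a median of 0.44 and a ratio of mean FPKM of 1.38 at the median gene. In 26 of 35 members both high-potential accelerated libraries lay above both high-to-low libraries, beside 24.7% of all kept genes. Because this contrast chose the genes, nothing is read from that count. Between parental accelerated replicates 2 and 1 the median difference was 0.43, and replicate 2 was the higher in 28 of 35 members, beside 49.9% of all kept genes. As a group, the parental accelerated libraries lay a median of 0.18 above the high-to-low libraries, with 7 of 35 members free of overlap (11.4% of all kept genes). That group median rests on 1 library, since it was -0.03 without replicate 2 and 0.34 without replicate 1. The high-potential accelerated libraries lay a median of 0.33 above the parental accelerated libraries, with 14 of 35 members free of overlap (21.1% of all kept genes).

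Gene by gene, high-potential accelerated replicate 1 was above both high-to-low libraries in 31 of 35 members (36.2% of all kept genes) and replicate 2 in 30 (36.8%). Parental accelerated replicate 2 was above both in 25 of 35 members (32.3% of all kept genes) and replicate 1 in 11 (29.2%). In 23 of 35 members the high-potential accelerated libraries and parental accelerated replicate 2 were the 3 highest of the 6, beside 11.6% of all kept genes. The highest library of a member was high-potential accelerated replicate 2 in 19 genes (20.2% of all kept genes), its replicate 1 in 10 (18.1%), parental accelerated replicate 2 in 4 (15.3%) and its replicate 1 in 2 (13.7%). Neither high-to-low replicate was the highest for any member (13.8% and 19% of all kept genes for replicates 1 and 2), and neither high-potential accelerated replicate was the lowest (17.3% and 21.7%).

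**Figure D1:**
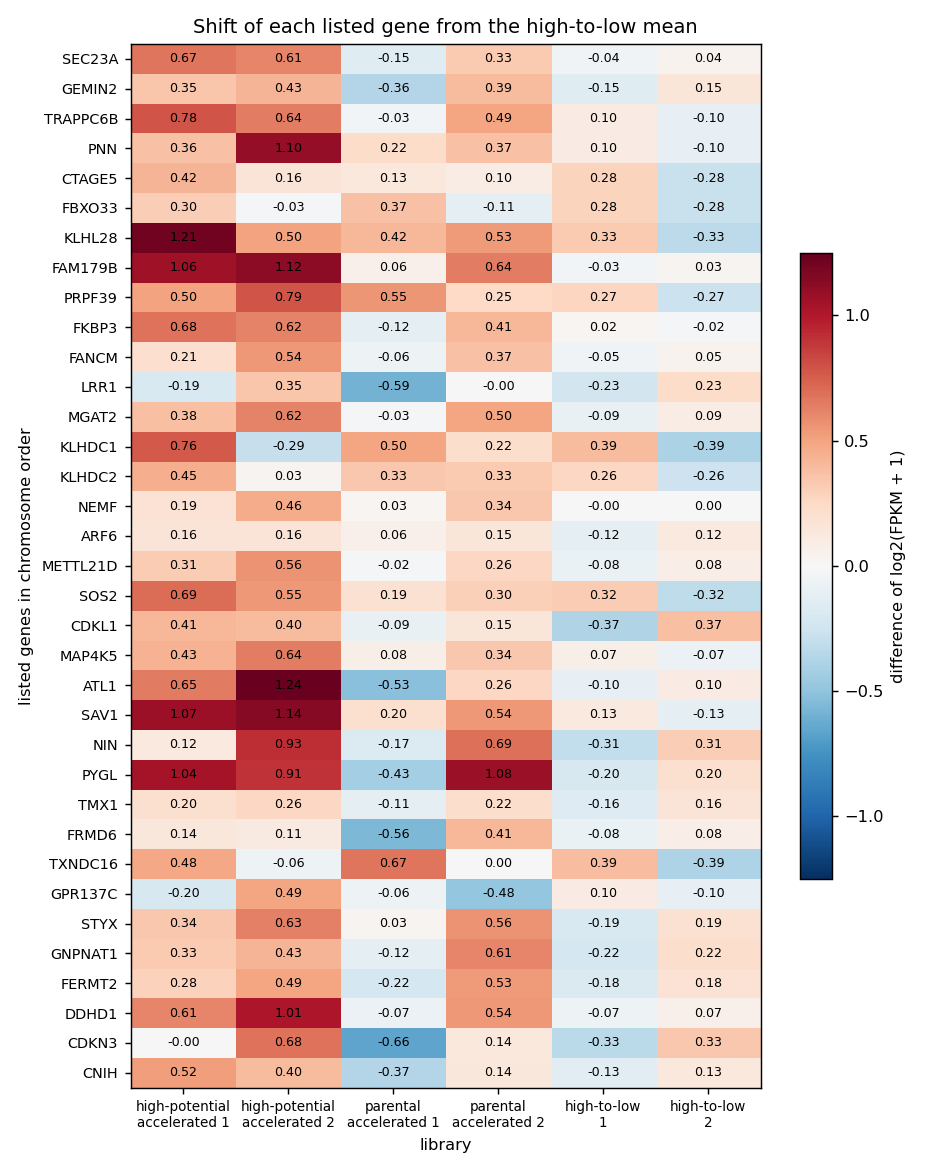
Shift of the 35 kept listed genes, in chromosome order from top to bottom, in each of the 6 libraries, as log2(FPKM + 1) minus the mean of the high-to-low libraries; red is higher and blue is lower. The 2 high-potential accelerated columns and parental accelerated replicate 2 are mostly red, with medians of 0.41, 0.54 and 0.34, and parental accelerated replicate 1 has a median of -0.03.

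Of the members that serve transport out of the endoplasmic reticulum, SEC23A, TRAPPC6B, ATL1 and CNIH had both high-potential accelerated libraries above both high-to-low libraries, and CTAGE5 did not. SEC23A, an inner coat subunit of the COPII vesicle and the first gene of the list, had 122 and 117 FPKM in high-potential accelerated, 68.6 and 95.9 FPKM in parental accelerated and 74.2 and 78.4 FPKM in high-to-low libraries. CNIH, a cornichon cargo receptor and the last gene of the list, had 139.3 and 127.5 FPKM in high-potential accelerated, 74.8 and 106.5 FPKM in parental accelerated and 88.3 and 105.9 FPKM in high-to-low libraries. Both genes were highest in the high-potential accelerated libraries and lowest in parental accelerated replicate 1. The differences between high-potential accelerated and high-to-low libraries were 0.64 (SE 0.21) for SEC23A and 0.46 (SE 0.23) for CNIH on the log2 scale. TRAPPC6B, a subunit of the TRAPP tethering complex, differed by 0.71. CTAGE5, which helps load large cargo at exit sites, differed by 0.29 with overlapping libraries and was 0.03 lower in parental accelerated replicate 2 than in replicate 1. CTAGE5 shares exons with MIA2 (RefSeq lists them as 1 gene), so how the deposited values split reads between the 2 symbols is uncertain. ATL1 had 3.64 and 5.95 FPKM in high-potential accelerated, 1.05 and 2.53 FPKM in parental accelerated and 1.75 and 2.17 FPKM in high-to-low libraries, a difference of 0.95 (SE 0.35). Its back-to-back neighbour MAP4K5 differed by 0.54 (SE 0.20), a gap between the 2 genes of the order of their standard errors. The 2 genes overlap each other in the annotation.

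Of the thioredoxin-like and sugar-handling proteins of the secretory pathway, TXNDC16 alone had overlapping high-potential accelerated and high-to-low libraries. TMX1, a membrane-bound disulfide oxidoreductase, had 70.6 and 73.8 FPKM in high-potential accelerated, 56.7 and 71.8 FPKM in parental accelerated and 54.9 and 68.7 FPKM in high-to-low libraries. The libraries did not overlap between the outer groups, yet high-to-low replicate 2 lay close below high-potential accelerated replicate 1. TXNDC16 had 5.06 and 3.18 FPKM in high-potential accelerated, 5.93 and 3.36 FPKM in parental accelerated and 4.70 and 2.32 FPKM in high-to-low libraries. In each group its replicate 1 was the higher, and the groups overlapped throughout. MGAT2, which adds the second antenna to N-glycans, had 35.7 and 42.2 FPKM in high-potential accelerated, 26.6 and 38.7 FPKM in parental accelerated and 25.5 and 29.01 FPKM in high-to-low libraries, a difference of 0.50 (SE 0.24). GNPNAT1, an enzyme of UDP-N-acetylglucosamine synthesis, differed by 0.38 and was highest of all in parental accelerated replicate 2, at 32.8 FPKM.

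Splicing and RNA factors were represented by GEMIN2, PNN and PRPF39. PNN, a nuclear speckle protein that also localises to desmosomes, had 30.8 and 52.1 FPKM in high-potential accelerated, 27.9 and 30.9 FPKM in parental accelerated and 25.6 and 21.995 FPKM in high-to-low libraries. The high-potential accelerated replicates were far apart, and the difference from high-to-low was 0.73 (SE 0.28). GEMIN2, a core subunit of the SMN complex, differed by 0.39 and was 0.76 higher in parental accelerated replicate 2 than in replicate 1. PRPF39, a U1 snRNP-associated factor, differed by 0.65 but was 0.30 lower in parental accelerated replicate 2 than in replicate 1, and it overlaps FKBP3 in the annotation. FKBP3, a nuclear prolyl isomerase, had 159.7 and 152.6 FPKM in high-potential accelerated, 90.8 and 132.3 FPKM in parental accelerated and 100.7 and 97.5 FPKM in high-to-low libraries. As in SEC23A, parental accelerated replicate 1 was the lowest, and the high-potential accelerated libraries stood above high-to-low with a difference of 0.65 (SE 0.23).

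Ubiquitin ligase and protein quality control genes held several of the exceptions. LRR1, a substrate receptor of CUL2 ligases that acts on the replication machinery, had 34.3 and 50.03 FPKM in high-potential accelerated, 25.7 and 39.1 FPKM in parental accelerated and 33.2 and 46.0 FPKM in high-to-low libraries. Its difference between high-potential accelerated and high-to-low libraries was the lowest of the list, at 0.08 (SE 0.31), and replicate 2 was the higher in every group. KLHDC2, a receptor for carboxy-terminal degrons, had 128 and 95.6 FPKM in high-potential accelerated, 118 and 117.5 FPKM in parental accelerated and 112 and 77.8 FPKM in high-to-low libraries. FBXO33, an F-box protein, had 4.86 and 3.65 FPKM in high-potential accelerated, 5.12 and 3.38 FPKM in parental accelerated and 4.75 and 2.91 FPKM in high-to-low libraries. Neither gene separated the groups, and replicate 1 was the higher in each group. KLHL28, a BTB-kelch protein, had 8.52 and 4.85 FPKM in high-potential accelerated, 4.51 and 4.95 FPKM in parental accelerated and 4.18 and 2.28 FPKM in high-to-low libraries, a difference of 0.86 (SE 0.34). KLHDC1 differed by 0.24 with overlapping libraries. NEMF, which acts on stalled ribosomes, differed by 0.33, and METTL21D, a methyltransferase of the VCP ATPase, by 0.44, both with no overlap. NEMF and KLHDC2 overlap each other in the annotation.

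Signalling genes gave the greatest difference of the list. SAV1, the scaffold that joins the Hippo kinases, had 37.4 and 39.4 FPKM in high-potential accelerated, 20.04 and 25.7 FPKM in parental accelerated and 19.0 and 15.8 FPKM in high-to-low libraries. The 3 groups did not overlap, and SAV1 was 1.10 (SE 0.21) higher in high-potential accelerated than in high-to-low libraries and 0.34 higher in parental accelerated replicate 2 than in replicate 1. FRMD6, a FERM-domain protein upstream of the same pathway, had 8.16 and 7.95 FPKM in high-potential accelerated, 4.63 and 10.04 FPKM in parental accelerated and 6.84 and 7.79 FPKM in high-to-low libraries. It was among the lowest differences, at 0.13 (SE 0.34), while the parental accelerated replicates were 0.97 apart, and it shares its locus with the antisense transcript FRMD6-AS1, which a library without strand information cannot separate. ARF6, a small GTPase of the plasma membrane, had 42.5 FPKM in both high-potential accelerated, 39.4 and 42.1 FPKM in parental accelerated and 34.6 and 41.2 FPKM in high-to-low libraries, a difference of 0.16 (SE 0.18). SOS2, an exchange factor for Ras, differed by 0.62, CDKL1, a CDK-like kinase, by 0.41, and STYX, a catalytically inactive phosphatase, by 0.49. GPR137C had 1.14 and 2.45 FPKM in high-potential accelerated, 1.35 and 0.760 FPKM in parental accelerated and 1.63 and 1.29 FPKM in high-to-low libraries, and showed no order by group.

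The genes of metabolism and adhesion were higher in parental accelerated replicate 2 than in replicate 1. PYGL, the liver form of glycogen phosphorylase, had 129 and 118 FPKM in high-potential accelerated, 46.2 and 132.8 FPKM in parental accelerated and 54.3 and 71.8 FPKM in high-to-low libraries. Parental accelerated replicate 2 exceeded replicate 1 by 1.504 on the log2 scale, the greatest such gap of the list, and PYGL differed by 0.97 (SE 0.47) between high-potential accelerated and high-to-low libraries. DDHD1, a phospholipase acting on phosphatidic acid, had 5.01 and 6.94 FPKM in high-potential accelerated, 2.75 and 4.75 FPKM in parental accelerated and 2.77 and 3.13 FPKM in high-to-low libraries, a difference of 0.81 (SE 0.29). FERMT2, the integrin activator kindlin-2, differed by 0.39 and was 0.76 higher in parental accelerated replicate 2 than in replicate 1.

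Genes of the cell cycle, microtubules and DNA repair varied among themselves. CDKN3, a phosphatase of cyclin-dependent kinases, had 141.4 and 227 FPKM in high-potential accelerated, 89.5 and 155.7 FPKM in parental accelerated and 112 and 178.5 FPKM in high-to-low libraries. In every group its replicate 2 was the higher, as for LRR1 and for listed genes of other functions such as GEMIN2 and FERMT2. The groups overlapped. FAM179B, a TOG-domain protein of ciliary microtubules, had 2.86 and 3.02 FPKM in high-potential accelerated, 0.939 and 1.89 FPKM in parental accelerated and 0.814 and 0.902 FPKM in high-to-low libraries, a difference of 1.09 (SE 0.27). It had the highest ratio of mean FPKM of the list, 3.43, at a mean of 1.74 FPKM over the 6 libraries. FANCM, the DNA translocase of the Fanconi anaemia core complex, differed by 0.37, and NIN, a centrosomal anchor of microtubules, by 0.53 with overlapping libraries.

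**Figure D2:**
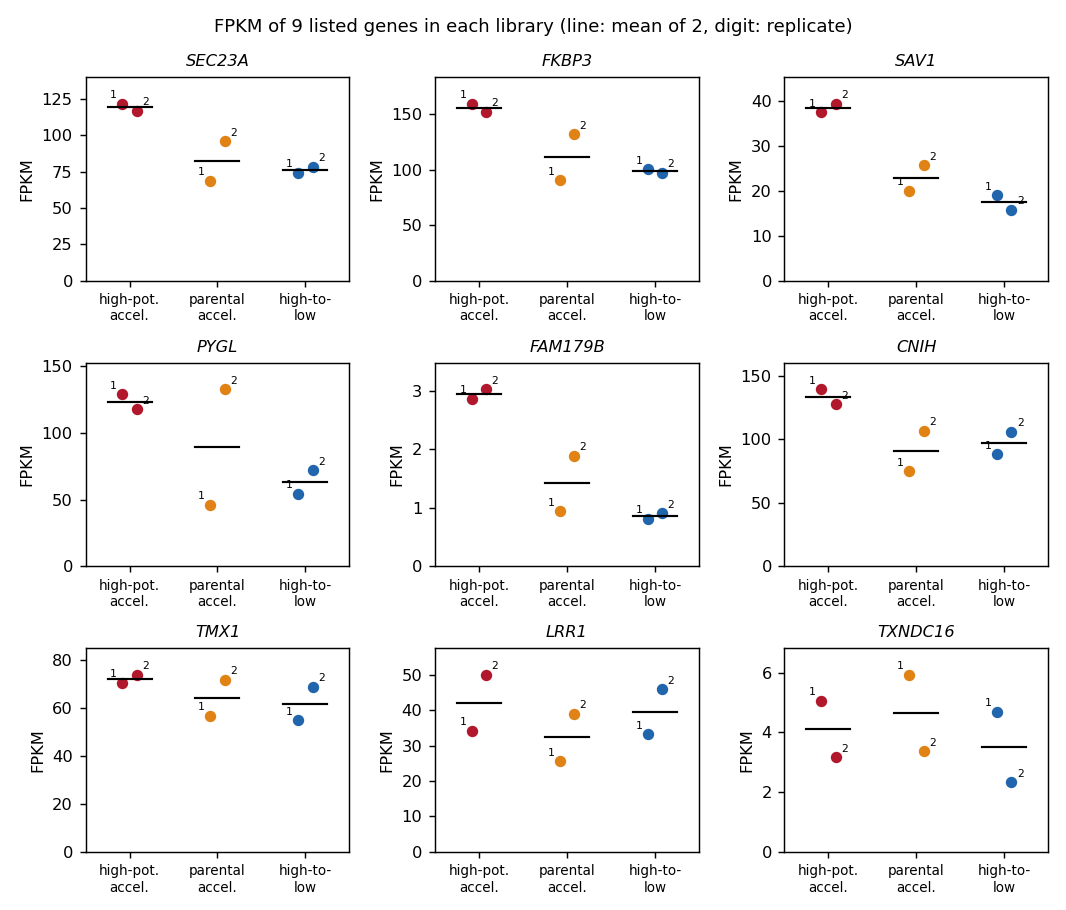
FPKM of 9 listed genes in each library, with points numbered by replicate and lines at group means. SEC23A, FKBP3, SAV1, PYGL, FAM179B and CNIH have both high-potential accelerated points above both high-to-low points, whereas in LRR1 and TXNDC16 the replicates within each group lie farther apart than the group means.

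No listed gene passed the limma test over all kept genes (Benjamini-Hochberg adjusted p under 0.05, 3 residual degrees of freedom) in any of the 3 comparisons. That test called 0.799% of all kept genes between high-potential accelerated and high-to-low libraries, 0.0165% between parental accelerated and high-to-low, and 0.494% between the accelerated groups. The lowest adjusted p of a listed gene was 0.0789, for SAV1, between high-potential accelerated and high-to-low libraries. With the replicate numbers as a block, limma called 1 of the 35 listed genes in that comparison, SAV1, beside 7.78% of all kept genes. At an unadjusted limma p under 0.05, 11 listed genes were higher in that comparison (7.57% of all kept genes). In parental accelerated over high-to-low 0 were higher (0.429%), and in high-potential accelerated over parental accelerated 5 (5.69%). The members were selected on these values, so nothing is read from these counts or from the result of SAV1. Standard errors of the listed genes ran between 0.18 and 0.47, with a median of 0.27, so a difference of 0.44 in a gene of median standard error is under 2 standard errors.

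Along the list, in chromosome order, the median difference between high-potential accelerated and high-to-low libraries was 0.64 over the first 12 kept genes (SEC23A to LRR1), 0.47 over the next 12 (MGAT2 to NIN) and 0.38 over the last 11 (PYGL to CNIH). For parental accelerated replicate 2 these medians were 0.37, 0.31 and 0.41. The medians of the high-potential accelerated difference thus fell along the list, beside SDs over genes of 0.30, 0.28 and 0.27 within these parts. Over the 35 genes, which share their libraries, Spearman's rho of this difference was -0.15 with chromosome order. It was 0.02 with mean FPKM, 0.09 with transcript GC content and 0.04 with transcript length. By library, rho of the shift with chromosome order was -0.27 and 0.02 in high-potential accelerated replicates 1 and 2. In parental accelerated replicate 2 it was 0.05. No gradient along the list is read from these values.

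By level, the median difference between high-potential accelerated and high-to-low libraries was 0.41 in the 13 members with a mean under 10 FPKM. It was 0.49 in the 11 members between 10 and 30 FPKM and 0.46 in the 11 members at 30 FPKM or more. Between parental accelerated replicates 2 and 1 these medians rose with level, at 0.29, 0.34 and 0.50. Over all kept genes of the same levels they rose too, at -0.11, 0.02 and 0.12. The SD over members of the high-potential accelerated difference was 0.28, and since the members were selected on this difference the choice itself narrows it. It was 0.42 over the 15 unlisted kept genes of the same span, 0.49 and 0.40 over the 35 kept genes before and after the list, and 0.67 over all kept genes. Within a library, neighbouring members differed by a median of 0.36 in high-potential accelerated replicate 1, 0.26 in its replicate 2 and 0.17 in parental accelerated replicate 2. The greatest steps were between SAV1 and NIN in high-potential accelerated replicate 1 (0.94), PNN and CTAGE5 in its replicate 2 (0.94), and GPR137C and STYX in parental accelerated replicate 2 (1.04). The SD over members of the difference between replicates 2 and 1 was 0.41 in the high-potential accelerated, 0.45 in the parental accelerated and 0.42 in the high-to-low group. Over members, the replicate differences of the high-potential accelerated and high-to-low groups correlated at 0.60, although no label pairs the numbers. Taken as independent, they alone would give the difference of group means an SD of 0.29, and taken as paired by number 0.19, beside the 0.28 observed. Whether the shift is more uneven than the replicates vary thus depends on that pairing.

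The list leaves out genes of its own span. Of 63 symbols between SEC23A and CNIH, these 2 included, 27 are unlisted, and 15 of those were kept. The 15 had a median difference of 0.35 between high-potential accelerated and high-to-low libraries, with 13 of 15 higher (49.2% of all kept genes), and of 0.43 between parental accelerated replicates 2 and 1, also with 13 higher (49.9%). In 9 of the 15 the high-potential accelerated libraries lay above both high-to-low libraries (24.7% of all kept genes). How these genes came to be left out of the list is not known, so they are not an unselected set.

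Among the highest differences of the unlisted genes were 0.85 for C14orf28, 0.82 for C14orf166, a subunit of the tRNA ligase complex, 0.70 for BMP4, a secreted ligand, and 0.50 for DNAAF2, a dynein assembly factor. C14orf166 had 159.5 and 185 FPKM in high-potential accelerated, 91.3 and 143.6 FPKM in parental accelerated and 92.2 and 102.4 FPKM in high-to-low libraries, the same order as most listed genes. The lowest were -0.78 for MIA2, -0.08 for POLE2, a subunit of DNA polymerase epsilon, 0.07 for the oxidase ERO1L, 0.13 for FRMD6-AS1 and 0.19 for the ubiquitin ligase TRIM9. MIA2 had 3.02 and 1.90 FPKM in high-potential accelerated, 6.41 and 3.52 FPKM in parental accelerated and 7.15 and 3.24 FPKM in high-to-low libraries, and it shares exons with CTAGE5.

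The list also marks no edge of the shift. Before SEC23A, the 3 nearest kept genes were SLC25A21, MIPOL1 and the transcription factor gene FOXA1, with differences of 0.27, 0.63 and 0.76 between high-potential accelerated and high-to-low libraries. After CNIH they were GMFB, CGRRF1 and GCH1, the entry enzyme of tetrahydrobiopterin synthesis, with 0.73, 0.83 and 0.46. Both sides were within the range of the members. The 35 kept genes before the list had a median difference of 0.55 and the 35 after it 0.48, beside 0.44 for the members. Between parental accelerated replicates 2 and 1 the medians were 0.37 before, 0.37 after and 0.43 in the members.

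Along all 393 kept genes of chromosome 14, in runs of 20, the shift began well before the list. The first 60 genes, TTC5 to CHMP4A, had median shifts of 0.05 and -0.03 in high-potential accelerated replicates 1 and 2, -0.02 in parental accelerated replicate 1 and 0.03 in its replicate 2. The next 40, MDP1 to FOXA1, had 0.48 and 0.52 in the high-potential accelerated replicates and 0.07 and 0.42 in the parental accelerated replicates. The 50 kept genes of the span of the list had 0.37 and 0.49 in the high-potential accelerated and -0.05 and 0.35 in the parental accelerated replicates. The 150 genes after it, GMFB to C14orf102, had 0.44 and 0.44 in the high-potential accelerated and 0.05 and 0.32 in the parental accelerated replicates. The list is thus a stretch inside a longer region in which the same 3 libraries were higher by a like amount.

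Over the last 93 kept genes of the chromosome the libraries parted. High-potential accelerated replicates 1 and 2 kept medians of 0.25 and 0.22 there, while parental accelerated replicate 2 had 0.05 and differed from its replicate 1 by a median of 0.02. Run by run, the median of parental accelerated replicate 2 lay between 0.21 and 0.45 from the run that starts at MDP1 to the run that ends at C14orf102, at 0.19 in the next run, and between -0.03 and 0.06 in the last 4 runs. The high-potential accelerated difference stayed between 0.13 and 0.28 in these last 5 runs. The order is that of GRCh38.p14, and the difference between regions was not tested.

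**Figure D3:**
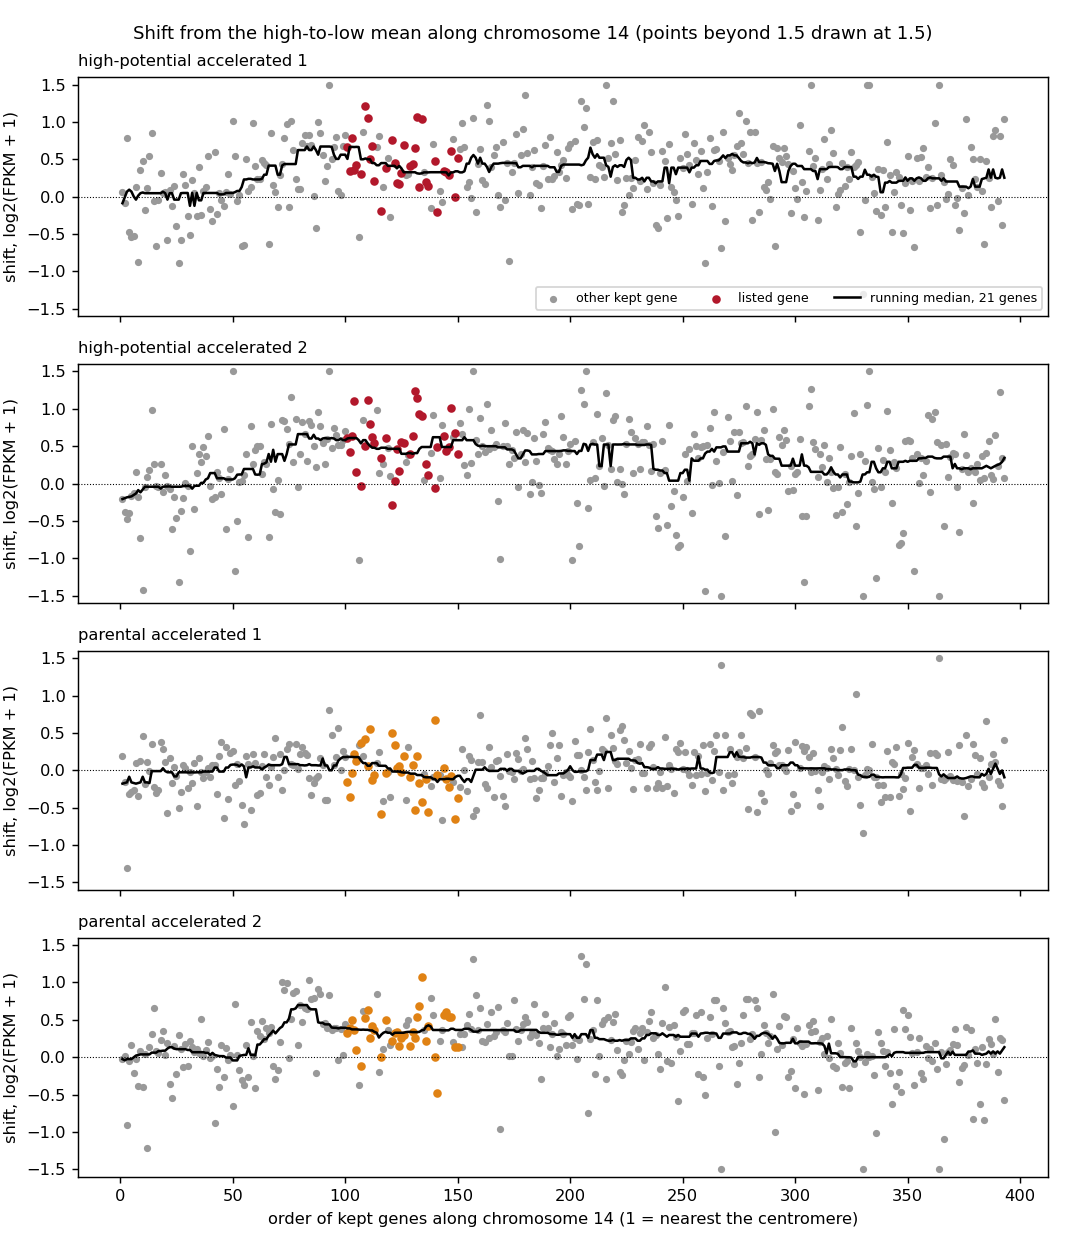
Shift from the high-to-low mean for each of 393 kept genes of chromosome 14 in chromosome order, 1 panel for each accelerated library, with listed genes coloured and a running median of 21 genes in black. In both high-potential accelerated libraries and in parental accelerated replicate 2 the running median leaves 0 before the list and stays above it afterwards, and over the last 93 genes the medians are 0.25, 0.22 and 0.05; parental accelerated replicate 1 stays near 0.

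**Figure D4:**
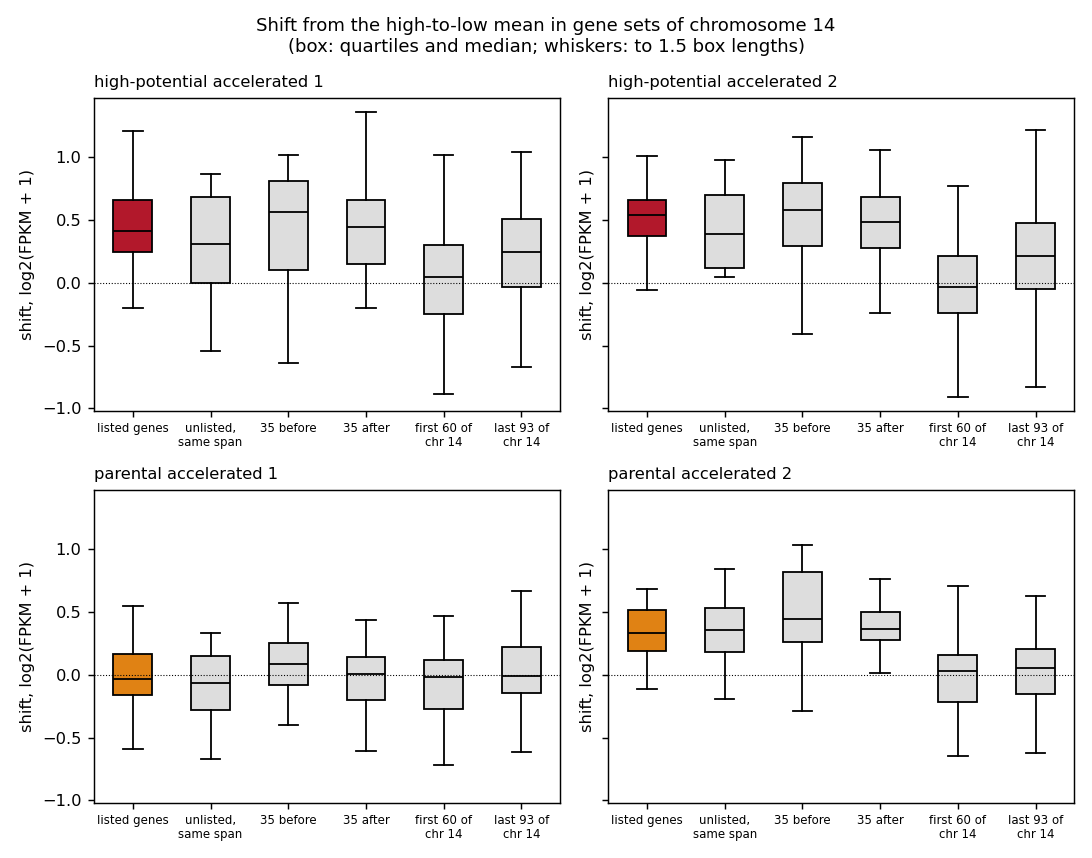
Shift from the high-to-low mean in the 35 kept listed genes, the 15 unlisted kept genes of the same span, the 35 kept genes on either side, and the first 60 and last 93 kept genes of chromosome 14, as medians, quartiles and whiskers to 1.5 box lengths. The first 4 sets overlap in every library, and the first 60 genes of the chromosome lie around 0.

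The libraries in which the list was higher were those with high ALDH1A1. Of all FPKM, the listed genes held 0.266% and 0.245% in the high-potential accelerated libraries, 0.170% and 0.231% in parental accelerated replicates 1 and 2, and 0.173% and 0.185% in high-to-low replicates 1 and 2. The 3 libraries above 0.2% had more than 300 FPKM of ALDH1A1 and the 3 below had less than 30 FPKM. With 6 libraries in 2 such clusters, no correlation is given, and the part of the ALDH-high state in the shift was not tested. In bulk RNA, a larger share of cells with a high level and a higher level in each cell cannot be told apart.

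Other properties that move with libraries were set beside the list. The descriptions end in a number whose opening digits are shared by high-potential accelerated replicate 1, parental accelerated replicate 1 and both high-to-low libraries, and differ in the remaining 2, and the labels do not say what it is. Among the first 4 of these libraries, high-potential accelerated replicate 1 lay a median of 0.41 above parental accelerated replicate 1 (31 of 35 members higher, beside 50.2% of all kept genes). Among the other 2, high-potential accelerated replicate 2 lay 0.17 above parental accelerated replicate 2 (27 of 35 members higher, beside 50.1% of all kept genes). The parental accelerated libraries carry different numbers, so the gap between them and the number cannot be told apart.

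The listed genes are poor in GC, with a median transcript GC content of 39.9% against 48.1% over kept genes. In the first of 5 equal bins of kept genes by GC content, the 19 members had a median difference of 0.39 between high-potential accelerated and high-to-low libraries, against 0.02 over 2239 genes of other chromosomes. In the next bin, the 13 members had 0.53, against -0.04 over 2243 genes of other chromosomes. Between parental accelerated replicates 2 and 1 the medians were 0.31 in the members and 0.06 elsewhere in the first bin, and 0.57 and 0.05 in the next. On other chromosomes, from the bin of lowest to that of highest GC content, the parental accelerated medians fell: 0.06, 0.05, 0.02, -0.06 and -0.13. The medians between high-potential accelerated and high-to-low libraries there were 0.02, -0.04, -0.05, -0.03 and -0.002. The part of GC content in the shift was not tested.

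Genes that work with the members but lie outside the list were set beside them, in 10 lists of complex partners with 107 kept genes. Of these partners 1, the splicing cofactor gene ACIN1, lies on chromosome 14 as well. The median difference of the partners between high-potential accelerated and high-to-low libraries was -0.03, with 51 higher and 56 lower. Between parental accelerated replicates 2 and 1 it was 0.09, with 64 higher and 43 lower. In the limma fit without the replicate block, no partner and no listed gene passed in any comparison. That fit called 0.799% of all kept genes between high-potential accelerated and high-to-low libraries. It called 0.0165% between parental accelerated and high-to-low and 0.494% between the accelerated groups, so nothing is read from the lack of calls. The 21 kept paralogues of members, related genes at other loci, had medians of 0.11 and 0.08, with 13 higher in each contrast. The 2 sets are not separate, since paralogues such as SEC23B, SOS1 and ARF4 are also among the partners. The listed genes were selected for being higher and the partners and paralogues were not. Nothing is therefore read from the gap between their medians.

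By complex, the 11 COPII and export partners of SEC23A and CNIH had a median of -0.40 with 2 higher, led by SEC24D and SEC31A at -0.83 each. SEC31A, an outer coat subunit, had 24.8 and 22.8 FPKM in high-potential accelerated, 43.1 and 37.4 FPKM in parental accelerated and 46.2 and 39.98 FPKM in high-to-low libraries, the opposite order to SEC23A. The 8 SMN complex partners of GEMIN2 had -0.04 with 3 higher, the 12 TRAPP subunits 0.02 with 6 higher, and the 10 splicing cofactors -0.07 with 3 higher. The 11 Fanconi anaemia partners had -0.25 with 3 higher, and FANCD2, the monoubiquitinated repair protein, was at -0.89. The 8 N-glycan enzymes had 0.02 with 5 higher, and the 10 ubiquitin and ribosome quality control genes 0.10 with 6 higher.

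In the signalling lists more members were higher than lower. The 16 Ras, ARF and G protein genes had a median of 0.19 with 12 higher, ranging to 1.026 for the kinase MAP4K4 and to -1.04 for the GTPase ARF4. The 11 Hippo genes had 0.23 with 9 higher, while the coactivator WWTR1 was at -1.16, with 20.2 and 23.7 FPKM in high-potential accelerated, 47.4 and 32.0 FPKM in parental accelerated and 44.0 and 56.9 FPKM in high-to-low libraries. The 10 centrosome and cell cycle genes had -0.27 with 2 higher, but 0.42 between parental accelerated replicates 2 and 1 with 10 of 10 higher. CCNB1, the mitotic cyclin, had 143.4 and 305.4 FPKM in high-potential accelerated, 225 and 508.6 FPKM in parental accelerated and 263 and 446.9 FPKM in high-to-low libraries. Replicate 2 was the higher in each group, as in CDKN3 and LRR1. That pattern was not particular to cell cycle genes, since listed genes of other functions, such as GEMIN2, MGAT2, TMX1 and FERMT2, showed it too. Of the 107 partners, the 4 on chromosome 3 and the 6 on chromosome 16 were all lower in high-potential accelerated libraries, with medians of -0.96 and -0.74, and the other 97 had a median of 0.01.

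**Figure D5:**
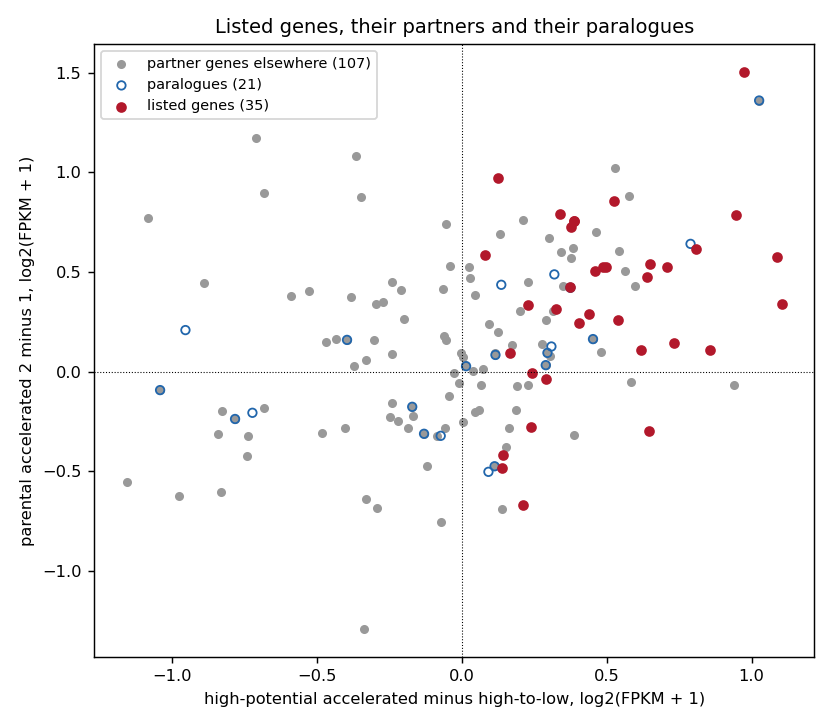
Difference between high-potential accelerated and high-to-low libraries (x axis) and between parental accelerated replicates 2 and 1 (y axis), both of log2(FPKM + 1), for the 35 kept listed genes, 107 partners and 21 paralogues. All listed genes lie right of 0 and 28 of 35 lie above 0, whereas the partners lie on both sides of each axis. Genes that are both partner and paralogue are drawn in both sets.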

How the data were processed

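The authors deposited 1 FPKM value per gene symbol and library, in 6 tables that hold the same 23284 symbols. TopHat2 2.0.13, Cuffnorm 2.2.1 and the build hg19 are named in the submitters' processing notes; no annotation or scaling between libraries is given in the sources used here. Count models were not used, because FPKM is a normalized unit. Values were taken as log2(FPKM + 1), which understates changes of low genes, over the 12135 kept genes, which reached 1 FPKM in 2 or more libraries. One limma model with a variance trend (limma 3.58.1, R 4.3.3) was fitted over all 6 libraries, with 2 libraries a group and 3 residual degrees of freedom, two-sided, with Benjamini-Hochberg adjustment over all kept genes at 0.05. The fit was tested on simulated data. Chromosome order came from RefSeq (GRCh38.p14), which matched 21936 symbols. GC content and transcript length came from the longest GENCODE transcript of each gene, available for 96.2% of kept genes and all 35 kept members. Depth per library was read only as a ratio, from genes under 0.3 FPKM whose values share 1 ratio within 3%.

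Values in every library are given for the 6 kept members of highest and the 6 of lowest difference between high-potential accelerated and high-to-low libraries, for the first and last member and for members with a mean of at least 30 FPKM. The 5 highest and 5 lowest unlisted genes, the 3 nearest outside on each side and at most 2 genes a partner list are named, and further values were chosen after they were seen; 1 gene of this rule is not reported here. The members and all lists were chosen with earlier results of these data known. Alternative settings concerned pseudocount, filter, scaling, the variance trend, which libraries entered, terms for the replicate and description numbers, and each library left out in turn.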

Additional observations from a re-analysis of the deposited data

How the results depend on the processing

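The median difference of the listed genes between high-potential accelerated and high-to-low libraries, 0.44, was 0.35 with the description number as a term and between 0.41 and 0.54 when each library was left out in turn. That between parental accelerated and high-to-low, 0.18, was reversed to -0.032 without parental accelerated replicate 2 and was at most 0.34, without parental accelerated replicate 1. That between the accelerated groups, 0.33, ran between 0.20 and 0.50 with a library left out, and that between parental accelerated replicates 2 and 1, 0.43, between 0.36 and 0.50 under the other settings. For the unlisted genes of the span the median of 0.35 was 0.15 with the description number as a term and 0.20 to 0.47 with a library left out. The SD over listed genes, 0.28, was 0.35 at a pseudocount of 0.1, 0.33 over all kept genes of the span, 0.25 over members of at least 5 FPKM, and 0.28 to 0.36 with a library left out. Of 210 values of single members with a library left out, 11 changed sign, in 7 members, as did 3 of 277 under other settings. The replicate numbers are not said to pair the libraries; with them as a replicate block the median stayed 0.44, and the calls over all genes were 944 (301 higher) in place of 97 between high-potential accelerated and high-to-low, 546 in place of 60 between the accelerated groups and 2 in both fits between parental accelerated and high-to-low. Of the listed genes, the limma fit with the block called 1, SAV1, between high-potential accelerated and high-to-low, and the fits without the block, under each setting run, called 0. Deviations of same-numbered libraries correlated at 0.16 to 0.28. Those 3 counts, taken as 97, 60 and 2, were 54, 31 and 4 at the pseudocount of 0.1, 39, 38 and 2 with no filter, 113, 39 and 7 with only the 2 groups compared, 54, 105 and 7 with the description number, 134, 80 and 0 with small RNA genes left out, and 13 to 115, 14 to 38 and 4 to 7 with a library left out. The cause of these changes was not tested. With 2 libraries a group and no fragment counts, shifts of single members near their standard errors are not resolved.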

Other observations

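Medians by chromosome place the long arm of chromosome 14 beside others that differed between the libraries. Over the 393 kept genes of chromosome 14 the median difference between high-potential accelerated and high-to-low libraries was 0.32, the highest of the 23 chromosomes with kept genes here, followed by 0.26 on chromosome 8, 0.23 on chromosome 21, 0.22 on chromosome 2 and 0.21 on chromosome 13. The lowest were -0.55 on chromosome 16 (540 genes), -0.49 on chromosome 3 (669 genes) and -0.26 on chromosome 10. In parental accelerated replicate 2 the highest median shifts were 0.28 on chromosome 21, 0.25 on chromosome 9, 0.23 on chromosome 18, 0.22 on chromosome 2 and 0.21 on chromosome 14, and the lowest was -0.16 on chromosome 16. Chromosome 18 had -0.02 in the high-potential accelerated difference beside 0.23 in parental accelerated replicate 2, and chromosome 13 had 0.21 beside 0.03. In parental accelerated replicate 1 the medians of all these chromosomes lay between -0.08 and 0.03. None of these differences between chromosomes was tested.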
